A study of Mus musculus with 18 samples.

Results

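Immediate early genes are the genes that a stimulated cell transcribes first, and 10 of them were followed gene by gene through 18 mouse brain mRNA libraries: *Fos*, *Fosb*, *Junb*, *Egr1*, *Egr2*, *Egr3*, *Egr4*, *Npas4*, *Arc* and *Nr4a1*. They were selected by symbol from a table of 53468 genes, and all 10 were matched. The list was chosen by the genotype differences that earlier work on these same libraries had shown for such genes. The genotype values here are therefore a description, with counts of calls printed only beside those over all genes. The differences between regions were not used in the choice, though earlier results of these data were known when it was made. The mice were males at postnatal day 25 from 1 litter on a C57BL/6 background. The 3 Fmr1CRE mice carried a single-base variant, made with CRISPR/Cas9, in a *cis*-regulatory element assigned to *Fmr1*, and the 3 wild-type mice were littermates without it. The forebrain, midbrain and hindbrain of each mouse were dissected, and each gave 1 poly(A) library.

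In a resting neuron these genes are transcribed at a low level. Synaptic activity and calcium entry activate factors that are already in place, such as CREB, SRF and MEF2, and the genes are then switched on within minutes, without new protein synthesis, and off again soon after. Most of the products are transcription factors that act on later genes, whereas Arc acts at the synapse, where it promotes removal of AMPA receptors. The transcripts are therefore widely read as a trace of recent neuronal activity.

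CREB binds the cAMP response element, which is unrelated to the CRE of the mouse line's name. Promoter sequence was found for 7 of the 10 genes in the RefSeq table of build GRCm38.p6, and *Egr1*, *Egr3* and *Arc* were missing from it. The half-site of the cAMP response element, TGACG or CGTCA on the strand shown, was present within 250 bases before a start of all 7, against 17.8% of the 32851 promoter windows of that length. The 7 genes had 11 windows, several of them for *Egr2* and not all with a half-site, so a count by gene is not like a share by window. The *Npas4* window lay within an annotated exon over all 250 bases. The full element TGACGTCA was in none of the 7 and in 1.55% of all windows. The Egr site GCGGGGGCG or CGCCCCCGC was in those of *Fosb* and *Nr4a1* and in 2.57% of all. The windows of 4 genes are shown because they hold from 2 to 4 half-sites each without touching an annotated exon. The half-sites are in capitals, 5′ to 3′.
Fos, chr12:85473640-85473889, plus strand: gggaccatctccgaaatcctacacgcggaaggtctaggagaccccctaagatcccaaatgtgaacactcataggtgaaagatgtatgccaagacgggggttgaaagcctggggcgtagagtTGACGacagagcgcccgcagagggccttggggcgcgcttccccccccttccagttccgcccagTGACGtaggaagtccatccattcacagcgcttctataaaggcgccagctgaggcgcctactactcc
Egr2, chr10:67537619-67537868, plus strand: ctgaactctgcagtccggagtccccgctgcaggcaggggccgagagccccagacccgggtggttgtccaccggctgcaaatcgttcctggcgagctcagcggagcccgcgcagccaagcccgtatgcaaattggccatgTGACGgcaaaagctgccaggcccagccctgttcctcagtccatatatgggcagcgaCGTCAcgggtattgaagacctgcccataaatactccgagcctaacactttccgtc
Egr4, chr6:85513590-85513839, minus strand: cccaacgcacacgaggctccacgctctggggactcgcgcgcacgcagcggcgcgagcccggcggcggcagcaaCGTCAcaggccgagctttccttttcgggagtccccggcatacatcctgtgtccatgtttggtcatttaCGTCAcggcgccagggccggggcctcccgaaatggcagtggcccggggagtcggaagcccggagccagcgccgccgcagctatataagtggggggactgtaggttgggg
Nr4a1, chr15:101266596-101266845, plus strand: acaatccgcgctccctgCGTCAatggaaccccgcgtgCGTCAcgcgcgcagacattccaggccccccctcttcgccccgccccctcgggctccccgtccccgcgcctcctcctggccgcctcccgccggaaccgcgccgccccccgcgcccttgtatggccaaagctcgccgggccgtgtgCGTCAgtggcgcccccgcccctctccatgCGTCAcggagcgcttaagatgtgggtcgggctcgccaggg
In *Fos* the half-sites began 129 and 66 bases before the start, with the letters TATAAA at 33 bases. In *Nr4a1* the 4 half-sites began 233, 213, 69 and 40 bases before the start. A match describes letters in a window and does not show binding.

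Each library held between 22455512 and 28061185 counts, a narrow range. Values below are CPM, counts scaled to a common library size with the trimmed mean of M values (TMM), or log2 CPM. The forebrain markers summed to between 553 and 1139 CPM in forebrain libraries, 284 and 484 in midbrain libraries and 17.0 and 34.4 in hindbrain libraries. The midbrain libraries thus contained forebrain marker RNA at a level that hindbrain libraries did not. Midbrain markers ran from 41.5 to 107 CPM in midbrain, 3.05 to 13.8 in forebrain and 10.9 to 25.9 in hindbrain, and hindbrain markers from 610 to 1061 in hindbrain, 117 to 330 in midbrain and 0.881 to 13.9 in forebrain. *Fmr1* itself was at 75.8 ± 2.57 CPM in Fmr1CRE forebrain and 77.7 ± 7.53 in wild-type forebrain (mean ± SD, n = 3). The corresponding values were 68.1 ± 2.02 and 67.7 ± 6.24 in midbrain and 64.7 ± 1.36 and 58.2 ± 10.1 in hindbrain.

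The forebrain libraries of replicate 3 may not match their labels, which these data do not settle. Genes that differed in the same direction between the Fmr1CRE and wild-type mice of replicate 3 in both midbrain and hindbrain were looked up in forebrain. This was done at 6 pairs of cutoffs for the difference and the level, all chosen after seeing the data. Between 69.6% and 75.0% of them, over 4 to 23 genes, ran in the opposite direction in forebrain. Among the 6 pairs of mice without replicate 3, between 31.3% and 53.3% did so, over 39 to 175 genes. The proportion in replicate 3 was higher than in those 6 pairs pooled at every pair of cutoffs, though at 2 of them it rested on 4 genes. Single pairs of mice varied. At a log2 difference of 1 and a floor of 20 CPM, replicates 2 of the 2 genotypes had 5 of 6 genes opposite, beside 3 of 4 in replicate 3. At a log2 difference of 3 and no floor, single pairs ran from 3 of 17 to 9 of 19 genes, beside 16 of 22. The labels were kept as given. The members' differences, the spread, the order of levels, the correlations and the counts of listed genes that use forebrain are given with and without these 2 libraries, the spread, order, lists and likeness as a choice made after seeing the data.

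The mean of the 10 genes also ordered the mice otherwise in forebrain than in the other regions. The list was chosen from these libraries, so its mean is no separate check of the labels. In midbrain and hindbrain the lowest libraries were those of wild-type replicates 2 and 3, at 3.51 and 2.71 log2 CPM in midbrain and 1.12 and 0.88 in hindbrain. In forebrain the lowest were wild-type replicate 2 and Fmr1CRE replicate 3, at 3.52 each, while wild-type replicate 3 was at 5.47. Midbrain and hindbrain means had a Pearson r of 0.91 over the 6 mice, and a Spearman rho of 0.94. Forebrain had an r of 0.05 with midbrain and 0.20 with hindbrain. Over the 4 mice other than replicate 3, these became 0.85 and 0.97, and without the 2 mice farthest from the median in forebrain 0.83 and 0.72. Among those 4 mice only wild-type replicate 2 was low in forebrain, at 3.52 beside 5.51 to 5.78, so 0.85 and 0.97 rest largely on it. Few points underlie each value, and the midbrain and hindbrain r dropped to 0.18 without the 2 mice farthest from the median in midbrain, so that relation rests on those 2.

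**Figure D1:**
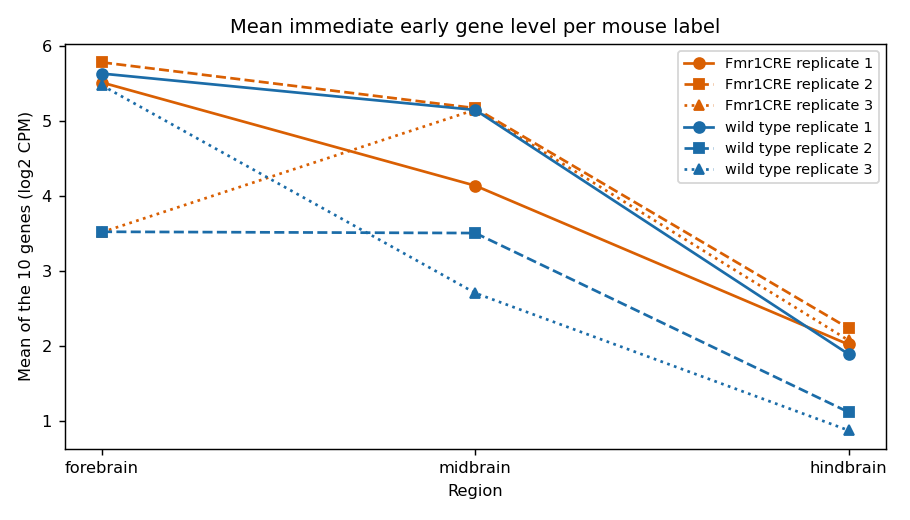
Mean log2 CPM of the 10 immediate early genes (vertical axis) in forebrain, midbrain and hindbrain (horizontal axis), with 1 line per mouse label, orange for Fmr1CRE and blue for wild type. Wild-type replicate 2 is low in all 3 regions, while the lines of both replicate 3 labels cross, Fmr1CRE replicate 3 from 3.52 in forebrain to 5.15 in midbrain and wild-type replicate 3 from 5.47 to 2.71.

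In level, hindbrain was lower than forebrain and midbrain in 9 of the 10 genes, *Fos* being the exception. Between forebrain and midbrain 1 gene, *Egr3*, was called. By edgeR's quasi-likelihood test with Benjamini-Hochberg adjustment over 20363 genes, 9 of 10 were higher in forebrain than in hindbrain, against 26.4% of all genes tested. The count was 9 of 10 for midbrain over hindbrain, against 25.1%, and 1 of 10 for forebrain over midbrain, against 9.38%. That last share is near the background, and the 9 genes not called are not thereby shown to be equal in forebrain and midbrain. *Egr2*, with 0 to 8 counts per hindbrain library, passed the filter only through the other regions, so its calls against hindbrain say little. With at least 10 counts required in every library fewer genes were tested, and 7 were called in each comparison with hindbrain. The median log2 difference of the 10 genes was 3.24 for forebrain over hindbrain, 2.48 for midbrain over hindbrain and 0.73 for forebrain over midbrain, while that of all genes was -0.01, -0.03 and 0.02. Without the 2 forebrain libraries of replicate 3 the counts were 9, 9 and 1 and the medians 3.37, 2.48 and 0.83. The forebrain over hindbrain difference was then 6.52 for *Egr3*, 6.22 for *Egr2*, 4.25 for *Egr4*, 3.78 for *Egr1*, 3.65 for *Arc*, 3.09 for *Fosb*, 2.70 for *Junb*, 2.65 for *Npas4*, 2.60 for *Nr4a1* and 0.70 for *Fos*. The summed neuron markers ran from 3165 to 3414 CPM in hindbrain, 3848 to 4738 in forebrain and 4024 to 4966 in midbrain, and the oligodendrocyte markers from 29536 to 41483, 12878 to 16422 and 16980 to 20197. The 10 forebrain markers had a median log2 difference of 0.68 for forebrain over midbrain and 4.82 for midbrain over hindbrain. All 10 were called in the latter comparison. The part of these cell types, and of forebrain tissue in the midbrain libraries, in the regional differences was not tested. In such bulk samples fewer expressing cells and less RNA per cell cannot be told apart.

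**Figure D2:**
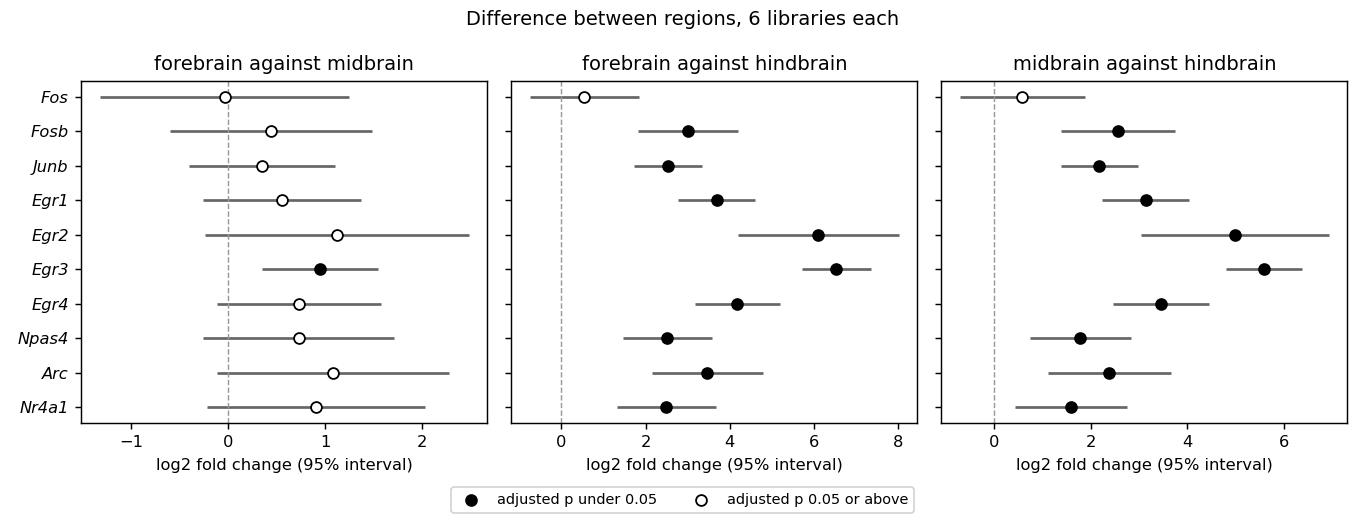
Difference between regions for each gene as log2 fold change (horizontal axes, 95% interval as a bar), over 6 libraries per region, with filled points at an adjusted p under 0.05. All 10 points lie above 0 against hindbrain, from 0.55 for *Fos* to 6.53 for *Egr3* in the forebrain comparison, and the interval of *Fos* spans 0.

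*Egr3* (chr14:70077203-70082614), a zinc-finger transcription factor, was low in all 6 hindbrain libraries. Its forebrain values ran from 51.6 to 120 CPM, its midbrain values from 25.3 to 70.4 and its hindbrain values from 0.561 to 1.49. No hindbrain library came near those of the other regions. The difference was 6.53 ± 0.38 on the log2 scale (SE, adjusted p = 9.21e-10, edgeR) for forebrain over hindbrain and 5.59 ± 0.37 for midbrain over hindbrain. Forebrain exceeded midbrain by 0.94 ± 0.28 (adjusted p = 0.0266, edgeR), and the interval ran from 0.35 to 1.54. That call was lost without Fmr1CRE replicate 1, Fmr1CRE replicate 2 or wild-type replicate 3, where the difference was 0.82, 0.94 and 0.70, and in wild-type libraries alone, at 1.08. Without the 2 forebrain libraries of replicate 3 it was 0.93 (adjusted p = 0.0483, edgeR).

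*Egr2* (chr10:67535475-67542188), a related factor also known for its part in hindbrain segmentation and peripheral myelination, was near the limit of counting in hindbrain. Its hindbrain counts were between 0 and 8 per library, and the 0, in wild-type replicate 3, allows up to 0.120 CPM by counting error alone. Forebrain libraries held 0.766 to 13.1 CPM and midbrain libraries 0.137 to 14.7. The fitted difference of 6.10 ± 0.90 for forebrain over hindbrain (adjusted p = 3.26e-05, edgeR) rests on those few counts and is imprecise, and it was 7.50 without wild-type replicate 2, where that of *Egr3* was 6.59. The midbrain over hindbrain difference of *Egr2*, 4.98 ± 0.92, was not called in wild-type libraries alone, at 3.51 (adjusted p = 0.0951, edgeR). *Egr4* (chr6:85511121-85513589) ran from 12.8 to 37.8 CPM in forebrain, 6.34 to 25.2 in midbrain and 0.356 to 2.49 in hindbrain, a difference of 4.18 ± 0.47 for forebrain over hindbrain.

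*Egr1* (chr18:34859823-34864984), the most used marker of the family, had 60.2 to 229 CPM in forebrain, 39.1 to 172 in midbrain and 6.96 to 19.9 in hindbrain. The forebrain and hindbrain ranges did not meet, and the difference was 3.69 ± 0.43. *Arc* (chr15:74669083-74672570) had 26.9 to 293 CPM in forebrain, 23.4 to 151 in midbrain and 13.4 to 24.3 in hindbrain. Its lowest forebrain library was thus only just above the highest hindbrain one, although the difference was 3.47 ± 0.62 (adjusted p = 0.000204, edgeR).

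*Fos* (chr12:85473890-85477273), whose protein pairs with Jun proteins in the AP-1 factor, was the gene not called against hindbrain. It ran from 3.88 to 32.4 CPM in forebrain, 4.93 to 42.8 in midbrain and 3.50 to 22.8 in hindbrain, so the 3 ranges overlapped almost entirely. The difference was 0.55 ± 0.61 for forebrain over hindbrain (interval -0.75 to 1.85, adjusted p = 0.476, edgeR) and 0.59 ± 0.61 for midbrain over hindbrain. These intervals do not show equal levels. Its relative *Fosb* (chr7:19302696-19310051) was 3.01 ± 0.56 higher in forebrain than in hindbrain, where it ran from 0.396 to 1.52 CPM. *Junb* (chr8:84974484-84978718), an AP-1 partner, was 2.52 ± 0.38 higher. *Junb* shares 351 bases with *Prdx2* on the other strand, which had up to 7135 counts, and use of strand in the counting is not given in the sources used here, so its level is uncertain.

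*Npas4* (chr19:4984355-4990316), a factor induced selectively by neuronal calcium entry, had 3.75 to 36.1 CPM in forebrain, 3.84 to 17.6 in midbrain and 1.46 to 4.64 in hindbrain. Its difference was 2.51 ± 0.50 for forebrain over hindbrain and 1.78 ± 0.49 for midbrain over hindbrain, the latter not called in wild-type libraries alone, at 1.77 (adjusted p = 0.0506, edgeR). *Nr4a1* (chr15:101254269-101274795), an orphan nuclear receptor, had 19.1 to 144 CPM in forebrain and 3.84 to 23.1 in hindbrain. It was 2.50 ± 0.56 higher in forebrain than in hindbrain, and its midbrain over hindbrain difference of 1.60 ± 0.55 (adjusted p = 0.0236, edgeR) was the smallest of the 9 called. It was not called without Fmr1CRE replicate 2, at 1.52 (adjusted p = 0.0822, edgeR), nor in wild-type libraries alone, at 1.72 (adjusted p = 0.109, edgeR).

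Levels were compared between genes only per kilobase of transcript. In forebrain the median order was *Arc* at 73.8 CPM per kb, *Egr1* at 55.3, *Nr4a1* at 36.7, *Junb* at 30.7 and *Egr3* at 26.6, then *Fos*, *Egr4*, *Npas4*, *Egr2* and *Fosb*, the last at 1.66. Every neighbour in this order overlapped the next over the 6 libraries. Over the 4 libraries without those of replicate 3 the order was the same, from 85.7 for *Arc* to 1.66 for *Fosb*. The midbrain order opened with *Egr1* at 32.9 and *Arc* at 27.2. In hindbrain *Fos* came first at 10.2, followed by *Nr4a1* at 7.49 and *Arc* at 4.91, while *Egr3* lay at 0.284 and *Egr2* last at 0.0415. In hindbrain *Egr1* and *Npas4* did not overlap as neighbours, nor did *Fosb* and *Egr2*, and all other neighbours did.

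**Figure D3:**
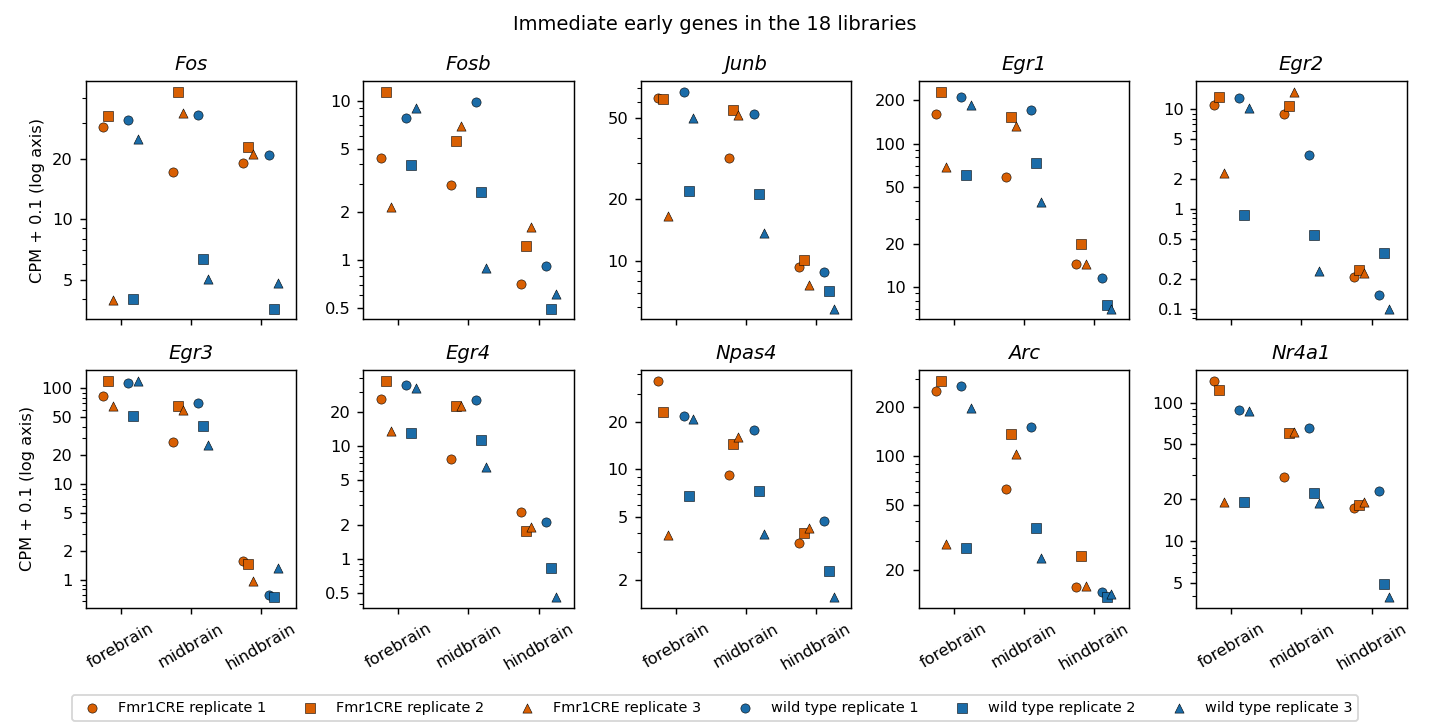
CPM of each gene plus 0.1 (vertical axes, logarithmic) in the 18 libraries by region (horizontal axes), with orange for Fmr1CRE, blue for wild type and marker shape for the replicate number. In forebrain Fmr1CRE replicate 3 and wild-type replicate 2 are the 2 lowest libraries in all 10 panels, and in hindbrain *Egr3* stays at or below 1.49 CPM.

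The spread between mice was large for these genes. The median SD of log2 CPM over the 6 mice was 1.07 for the 10 genes in forebrain, against 0.27 over all 20363 genes, 0.87 against 0.23 in midbrain and 0.64 against 0.26 in hindbrain. In midbrain all 10 genes were in the top 10% of genes by SD, in forebrain 8 and in hindbrain 4. Choosing the list by genotype differences in these libraries can itself raise the SD, so these ranks are a description. Without the 2 forebrain libraries of replicate 3 the forebrain median was 0.96, against 0.27, with 7 genes in the top 10%. *Egr2* in midbrain had an SD of 2.53, above 99.8% of genes, and its highest library had 107 times the CPM of its lowest. *Junb* and *Arc* in hindbrain, at 0.29 and 0.31, were near the middle of all genes.

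In some genes high and low libraries were far apart. *Arc* in forebrain was at 254, 293 and 28.5 CPM in Fmr1CRE replicates 1, 2 and 3 and at 270, 26.9 and 198 in the wild-type replicates. The gap between the second lowest and the third lowest library was 6.92-fold. *Fos* in forebrain was at 28.6, 32.4 and 3.88 CPM in Fmr1CRE and 31.1, 3.91 and 25.1 in wild type, with a gap of 6.41-fold at the same place. In *Fosb* and *Egr3* there was little gap at that place in forebrain, 1.11-fold and 1.29-fold, nor in *Junb* and *Arc* in hindbrain, 1.07-fold and 1.03-fold. The 2 lowest forebrain libraries were the same for all 10 genes. In midbrain wild-type replicates 2 and 3 were the lowest pair for 7 of 10 genes and in hindbrain for 8 of 10, with Fmr1CRE replicate 1 among the lowest pair of the other 3 in midbrain.

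Total counts, mitochondrial share and marker levels of the low libraries can be read beside this. In forebrain the low libraries had 24846075 and 26069663 counts and 11.2% and 11.9% mitochondrial counts, against 11.8% to 13.8% in the other 4. The 8 neuron markers summed to 4728 and 4738 CPM in the low forebrain libraries and to between 3848 and 4451 in the other 4. In midbrain the forebrain markers summed to 390 and 284 CPM in the low libraries and to between 287 and 484 in the others. The 8 heat shock genes summed to between 2263 and 2752 CPM in forebrain, 2985 and 3674 in midbrain and 3381 and 4007 in hindbrain. Their part in the spread was not tested.

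Within a region the genes varied together. Over the 45 pairs and 6 libraries, the median Pearson r was 0.94 in forebrain, from 0.71 to 0.999, and 0.93 in midbrain, from 0.55 to 0.995. In hindbrain it was 0.58, from -0.23 to 0.97, with 42 of 45 pairs above 0, and 0.25 when the values were centred on each genotype. Centred likewise, the median r was 0.95 in forebrain and 0.95 in midbrain. The median over all pairs of tested genes was 0.01 in forebrain and 0.00 in midbrain and hindbrain. The median Spearman rho was 0.77, 0.89 and 0.54. Each pair shares its libraries, and the values describe these 6 libraries per region. The choice of the list by genotype differences can raise r as well, so the comparison with all pairs is a description.

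Without the 2 libraries farthest from the median, the median r fell to 0.31 over 4 libraries in forebrain and to 0.11 in hindbrain, so that the relation there rests on those libraries. It stayed at 0.93 in midbrain, with 37 of 45 pairs above 0. There Fmr1CRE replicate 1 remained as a library of intermediate level, with a mean of 4.14 log2 CPM beside 5.15 to 5.17, so 0.93 rests largely on it. Without the 2 forebrain libraries of replicate 3 the median r was 0.94 in forebrain. That value rests largely on wild-type replicate 2, at 3.52 log2 CPM beside 5.51 to 5.78. In hindbrain *Egr2* and *Egr3* followed the others least, with median r of 0.22 and 0.17. Their counts there were 0 to 8 and 16 to 42 per library. *Nr4a1*, *Egr4* and *Egr1* followed most, at 0.84, 0.82 and 0.82.

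Between genotypes, the contrast behind the choice of the list, most genes overlapped in every region. No gene of the 10 was called in forebrain or midbrain and none of the 9 tested in hindbrain by edgeR's quasi-likelihood test with Benjamini-Hochberg adjustment, against 0% of 18467 genes called in forebrain, 0.00543% of 18400 in midbrain and 0% of 19112 in hindbrain. At an unadjusted p under 0.05 the count was 0, 1 and 1 of the members, against 5.43%, 6.17% and 5.13% of all genes. DESeq2 called 0 members in each region, against 0.168%, 0.337% and 0.309% of all genes. *Egr2* was not tested in hindbrain because its counts were too low. A term for genotype by region called 0 of 10, against 0% of 20363 genes, with 0 members at an unadjusted p under 0.05, against 7.54%, and 0 called by DESeq2, against 0.256%. That test took the regions of a mouse as independent. Nothing is read from these counts.

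As a description, 7 of 10 genes had a higher fitted level in Fmr1CRE forebrain, 10 of 10 in midbrain and 9 of 9 in hindbrain. The median log2 difference was 0.12, 0.49 and 0.77. In forebrain it became 0.71, with 10 of 10 positive, without the libraries of replicate 3, so that the sign of the 3 negative genes there (*Fosb*, *Egr3* and *Egr4*) turned on those libraries. Leaving out mice 1 at a time also took the forebrain difference of every gene but *Nr4a1* below 0, to -1.06 for *Fosb* and -0.24 for *Arc*. In midbrain *Fosb*, *Egr3*, *Egr1* and *Egr4* fell in that way to -0.27, -0.12, -0.09 and -0.06. In hindbrain the lowest value was 0.14, for *Npas4*. In midbrain and hindbrain the low libraries were those of wild-type replicates 2 and 3, while wild-type replicate 1 was the highest of all 6 midbrain libraries for 7 of 10 genes.

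Markers of other cell types also had fitted differences between the genotypes, though no cell type marker was called in any region. In midbrain all 6 microglia markers had a positive fitted difference, with a median of 0.19. Of them 2 had an unadjusted p under 0.05, against 6.17% of all genes. Their sum ran from 226 to 259 CPM in Fmr1CRE midbrain and from 196 to 226 in wild type. In forebrain 1 of 6 was positive and in hindbrain 2 of 6, with a median of -0.14 in each. All 6 choroid plexus markers were positive in midbrain too, with a median of 0.53, and summed to between 223 and 484 CPM against 170 to 331, while in hindbrain 1 of 6 was positive, with a median of -0.59. Of the 6 astrocyte markers 1 was positive in forebrain, with a median of -0.27. The 5 blood markers had a median of 0.29 in midbrain, with 4 positive, and of -0.11 in forebrain, with 0 positive. Of the 6 endothelial markers 0 were positive in forebrain, with a median of -0.23, and of the 8 neuron markers 2 were positive in forebrain and 2 in midbrain, with medians of -0.17 and -0.13. Of the 6 oligodendrocyte markers 0 were positive in midbrain, with a median of -0.10. An unadjusted p under 0.05 was also reached by 2 of 6 astrocyte markers in forebrain and 1 in midbrain. The same held for 1 of 6 choroid plexus markers in forebrain and 2 in hindbrain. Over all genes the share was 5.43% in forebrain and 5.13% in hindbrain. The part of all these markers in the genotype values was not tested.

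**Figure D4:**
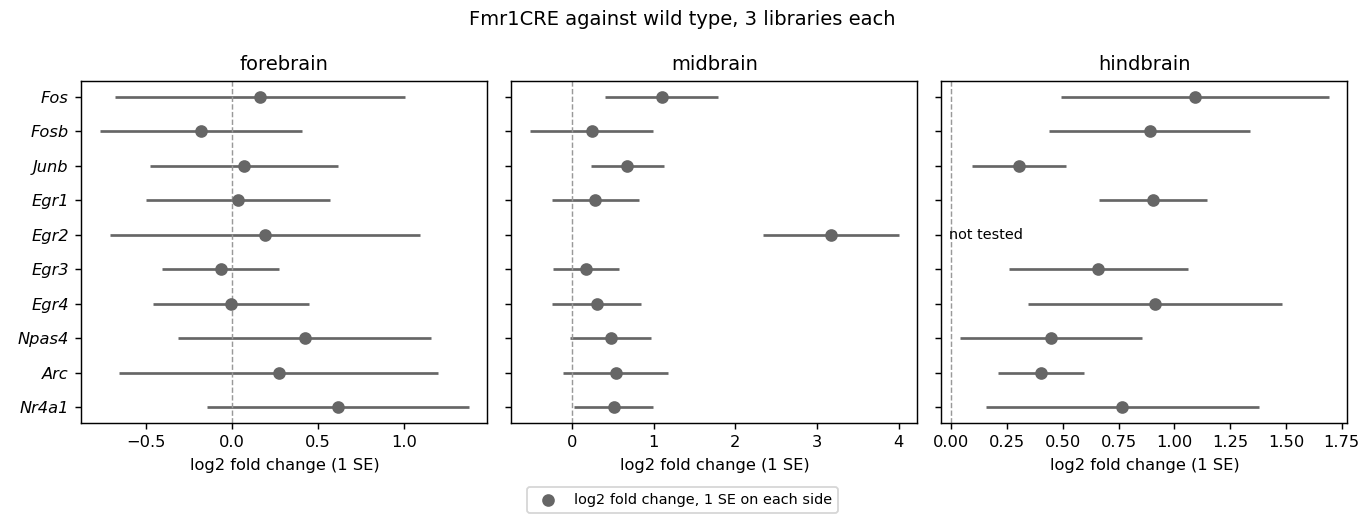
Fmr1CRE against wild type for each gene as log2 fold change (horizontal axes, 1 SE on each side as a bar) in forebrain, midbrain and hindbrain, over 3 libraries per genotype. The points lie around medians of 0.12, 0.49 and 0.77, and *Egr2* was not tested in hindbrain.

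*Egr2* in midbrain was at 8.80, 10.7 and 14.7 CPM in Fmr1CRE and 3.36, 0.449 and 0.137 in wild type. The genotypes did not overlap, and the fitted difference was 3.17 ± 0.83 on the log2 scale. *Egr1* in hindbrain was at 14.4, 19.9 and 14.4 CPM in Fmr1CRE and 11.5, 7.33 and 6.96 in wild type, a difference of 0.90 ± 0.24. *Arc* in hindbrain was at 15.6, 24.3 and 15.8 CPM against 14.4, 13.4 and 14.0. These were the 3 cases in which all Fmr1CRE libraries lay above all wild-type libraries, 1 of 10 in midbrain and 2 of 10 in hindbrain, against 6.29% and 5.06% of all genes. In forebrain there was none, against 4.49%.

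*Fos* showed how far 1 mouse moved the values. In hindbrain it was at 18.9, 22.8 and 21.0 CPM in Fmr1CRE and at 20.8, 3.50 and 4.71 in wild type. Wild-type replicate 1 thus lay within the Fmr1CRE range, and the difference of 1.09 ± 0.60 became 2.35 without it. The difference was as low as 0.69 with another mouse left out. In midbrain *Fos* was at 17.0, 42.8 and 33.6 CPM against 33.0, 6.24 and 4.93. Its difference there of 1.10 ± 0.69 became 2.47 without wild-type replicate 1 and was as low as 0.67 with another mouse left out. *Nr4a1* in forebrain was at 144, 123 and 19.1 CPM against 87.7, 19.2 and 87.0, a difference of 0.62 ± 0.76. That became 1.38 without the libraries of replicate 3 and was as low as 0.16 with 1 mouse left out.

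Genes outside the list that followed it most were sought by Pearson r with the mean of the 10 genes over the 18 libraries, after centring on each region. A value of at least 0.7 was reached by 102 of 20353 other genes, 0.501%. The highest were *Dusp1* at 0.95, which encodes a MAP kinase phosphatase, the noncoding *1700016P03Rik* at 0.95, the kinase gene *Sik1* at 0.93, *Dusp6* at 0.91 and *Ier2* at 0.89. Then came *Mcl1*, *Btg2*, *Trib1*, *Sec61a1* and *Klf10*, from 0.88 to 0.84. Without the 2 libraries farthest from the median, Fmr1CRE replicate 3 forebrain and wild-type replicate 3 midbrain, the r of these 10 genes ran from 0.76 to 0.94 over 16 libraries. It ran from 0.86 to 0.94 without the 2 forebrain libraries of replicate 3. Of these 10 genes, 7 were in the list of other rapid primary response genes, and *1700016P03Rik*, *Mcl1* and *Sec61a1* were in no list. That list and the immediate early genes were chosen with earlier results of these data known, so the overlap is a description. *Dusp1* ran from 12.3 to 35.1 CPM in forebrain, 12.9 to 37.7 in midbrain and 9.77 to 29.4 in hindbrain.

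*1700016P03Rik* (chr11:75172560-75177633) spans the hairpins of miR-212 and miR-132, microRNAs known to be induced through CREB. It ran from 0.605 to 10.3 CPM in forebrain, 0.411 to 4.17 in midbrain and 0.237 to 1.48 in hindbrain. The libraries measured this host transcript and not the mature microRNAs, whose sequences from RefSeq, build GRCm38.p6, are shown because they share a seed, bases 2 to 8, given in capitals.
mmu-miR-132-3p, chr11:75173723-75173744, plus strand: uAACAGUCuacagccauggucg
mmu-miR-212-3p, chr11:75173443-75173464, plus strand: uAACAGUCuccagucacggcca

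The r values by list are likewise a description, as the lists were chosen with earlier results of these data known. Of the 31 other rapid primary response genes, 14 had an r of at least 0.7, and the list's median was 0.70. *Dusp1*, *Sik1* and *Dusp6* led it. Of the 16 delayed activity response genes, 2 reached 0.7, *Gpr3* at 0.77 and *Plk2* at 0.73, ahead of *Inhba* at 0.66, and the median was 0.34. Of the 16 upstream regulators none did, and the highest were *Crebbp* at 0.58, *Srf* at 0.52 and *Crtc2* at 0.43 around a median of 0.02. The 8 family relatives that are not activity induced had a median of 0.14. Over all other genes it was -0.02. When the 2 forebrain libraries of replicate 3 were left out, the medians of the 4 lists were 0.68, 0.44, 0.10 and 0.10, with 13, 2, 0 and 0 genes reaching 0.7.

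**Figure D5:**
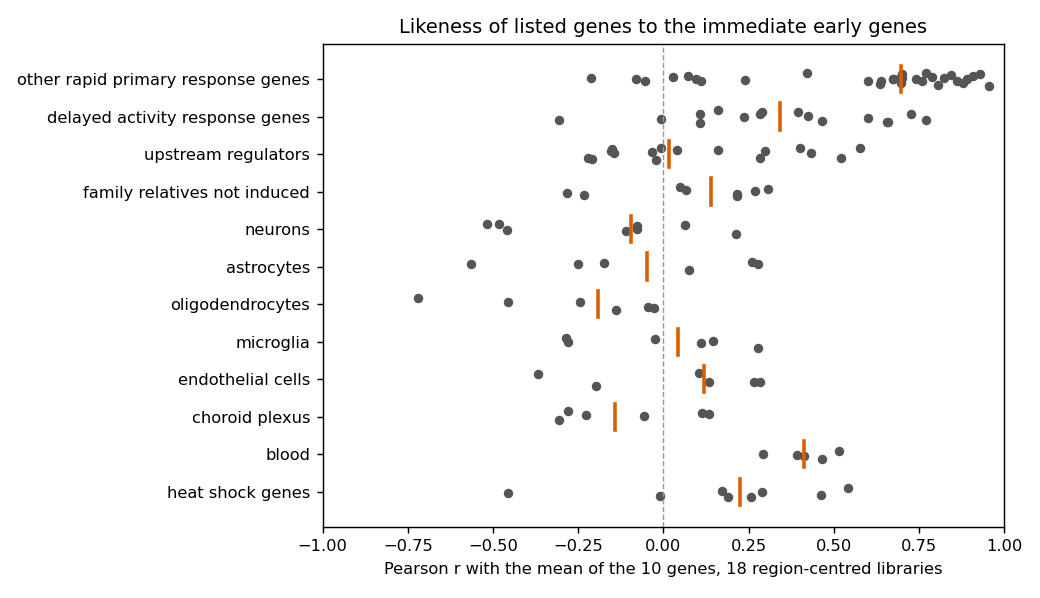
Pearson r of each listed gene with the mean of the 10 immediate early genes over 18 region-centred libraries (horizontal axis), by gene list (vertical axis), with an orange bar at each list's median. The other rapid primary response genes centre at 0.70 and the delayed genes at 0.34, while the marker lists of cell types lie between -0.19 for oligodendrocytes and 0.41 for blood.

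None of the markers of neurons, astrocytes, oligodendrocytes, microglia, endothelial cells, choroid plexus or blood reached 0.7. The median r was -0.09 for neurons, -0.05 for astrocytes, -0.19 for oligodendrocytes, 0.04 for microglia, 0.12 for endothelial cells, -0.14 for choroid plexus and 0.41 for blood. Single markers ran further, down to -0.72 among the oligodendrocyte genes, and all 5 blood genes lay between 0.29 and 0.52. The median was 0.22 for heat shock genes and 0.07, -0.13 and 0.06 for forebrain, midbrain and hindbrain markers.

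The counts of listed genes by region are read beside those of all genes tested, of which 26.4% were higher and 25.3% lower in forebrain than in hindbrain, 25.1% higher and 24% lower in midbrain than in hindbrain, and 9.38% higher and 9.96% lower in forebrain than in midbrain. Of the 31 other rapid genes, 17 were higher and 2 lower in forebrain than in hindbrain, 17 higher and 0 lower in midbrain than in hindbrain, and 3 higher and 3 lower in forebrain than in midbrain. *Ptgs2*, which encodes the inducible cyclooxygenase, was 3.44 ± 0.25 higher in forebrain than in hindbrain and *Fosl2* 2.18 ± 0.27, while *Dusp5* and *Gadd45g* were lower, at -1.47 ± 0.30 and -0.31 ± 0.11. Between midbrain and hindbrain *Ptgs2* led with 3.45 ± 0.25, then *Nr4a2* with 2.73 ± 0.36. *Nr4a2* and *Dusp5* were lower in forebrain than in midbrain, at -1.61 ± 0.35 and -1.01 ± 0.30, and *Ier5* and *Klf10* were higher, at 0.70 ± 0.17 and 0.65 ± 0.20. The median difference of this list was 0.74 for forebrain over hindbrain, beside 3.24 for the 10 genes. Without the 2 forebrain libraries of replicate 3 the counts were 17 and 1, 17 and 0, and 3 and 2, as *Gadd45g*, at -0.28, and *Dusp5* between forebrain and midbrain, at -0.89, were no longer called.

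Of the 16 delayed genes, 11 were higher and 2 lower in forebrain than in hindbrain, 9 higher and 1 lower in midbrain than in hindbrain, and 6 higher and 2 lower in forebrain than in midbrain. *Nptx2*, a secreted pentraxin of excitatory synapses, was 3.02 ± 0.15 and *Homer1*, a scaffold protein gene, 2.64 ± 0.17 higher in forebrain than in hindbrain. *Pim1* and *Scg2* were lower there, at -1.03 ± 0.11 and -0.52 ± 0.11. *Nptx2* and *Plk2* were higher in midbrain than in hindbrain, by 2.65 ± 0.15 and 1.95 ± 0.10, and *Pim1* lower, at -0.50 ± 0.11. *Inhba* and *Homer1* were higher in forebrain than in midbrain, by 1.05 ± 0.15 and 0.87 ± 0.16, and *Scg2* and *Pim1* lower, at -0.66 ± 0.11 and -0.53 ± 0.11. The counts were 11 and 2, 9 and 2, and 6 and 2 without the 2 forebrain libraries of replicate 3.

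Of the 16 upstream regulators, 13 were higher in forebrain than in hindbrain, 13 in midbrain than in hindbrain and 4 in forebrain than in midbrain, with none lower. *Mef2c*, a transcription factor gene of forebrain neurons, was 4.84 ± 0.22 higher in forebrain and 3.97 ± 0.21 higher in midbrain than in hindbrain. *Crtc1*, a CREB coactivator gene, was 2.07 ± 0.22 and 1.98 ± 0.22 higher. *Mef2c* and *Srf* were higher in forebrain than in midbrain, by 0.87 ± 0.19 and 0.50 ± 0.14. The counts were 13, 13 and 3 without the 2 forebrain libraries of replicate 3.

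Between genotypes no gene of these 3 lists was called by edgeR in any region, and 1, 2 and 3 of the rapid genes, 0, 1 and 1 of the delayed genes and 0, 0 and 6 of the upstream regulators had an unadjusted p under 0.05 in forebrain, midbrain and hindbrain, against 5.43%, 6.17% and 5.13% of all genes. The median log2 genotype difference was 0.01, 0.22 and 0.26 for the rapid genes, -0.01, 0.19 and 0.05 for the delayed genes and -0.16, 0.07 and 0.22 for the upstream regulators. In forebrain, without the libraries of replicate 3, it was 0.35, 0.07 and -0.25. The 8 family relatives not induced by activity had 3 higher and 4 lower in forebrain than in hindbrain, 4 higher and 3 lower in midbrain than in hindbrain, and 1 higher and 1 lower in forebrain than in midbrain.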

How the data were processed

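Total RNA of 18 dissected brain regions was made into poly(A) libraries with random priming and sequenced as single-end 50-base reads. The authors ran bcbio with Salmon 0.14.0 on mm10 and DESeq2 1.30.1, per the submitters' processing notes, and deposited raw counts per gene, which were used here. The deposited estimated counts per transcript (Salmon) were used only summed over all 18 libraries, for transcript length, because file names and sample records disagreed. A deposited table of transformed values was not used. Gene symbols and positions came from GENCODE M21 (GRCm38), and rows without a symbol (37 genes, 0.0151% of counts) stayed in library totals and tests. Sequences came from RefSeq, GRCm38.p6.

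Counts were fitted with edgeR 4.0.16 in R 4.3.3 by the quasi-likelihood test after TMM scaling and a filter on low counts: 6 groups of 3 over 18 libraries for region, and 3 against 3 within each region for genotype. Calls had a Benjamini-Hochberg adjusted p under 0.05 over all genes tested. Log2 CPM used a prior count of 2. Tools were tested on simulated data. All 10 genes were named, with the 10 others of highest r and, per list and region comparison, the 2 most raised and 2 most lowered genes called. The members and lists were chosen with earlier results of these data known. Regions of 1 mouse are paired by the labels, but the main fits over 18 libraries took them as independent. Deviations of the same mouse correlated across regions between -0.17 and 0.18, and those of equal replicate numbers across genotypes between -0.12 and 0.07. Values lay near 0 even for the same mouse, so this could not decide whether the numbers pair genotypes, and the main fits used no such pairing. The 18 libraries were sequenced in pools whose members are not given in the sources used here, so no value within a pool could be had. Alternatives were DESeq2 1.42.0, other scalings, filters and prior count, a mouse block and leaving out mice or, for lists, spread and likeness chosen after seeing the data, the 2 forebrain libraries of replicate 3.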

Additional observations from a re-analysis of the deposited data

How the results depend on the processing

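Between forebrain and midbrain the count of immediate early genes called was 1, and 0 with wild-type libraries alone, and from 0 to 1 with each mouse left out. The counts of 9 against hindbrain stayed within 6 to 9 under every alternative run, and with a count of at least 10 in every library fewer genes were tested. The genotype and interaction counts of members were 0 under every alternative run. With the mouse as a replicate block the region counts were 1, 9 and 9, and with the replicate number as a block the genotype counts were 0, 0 and 0. Over all genes the mouse block gave 3464, 10201 and 9671 calls between regions, against 3939, 10530 and 9994, and the number block 0, 1 and 0 between genotypes. *Fos* between forebrain and midbrain, at -0.04, was 0.11 without the 2 forebrain libraries of replicate 3 and 0.45 in wild-type libraries alone, and it ranged from -0.35 to 0.42 with each mouse left out, turning positive without Fmr1CRE replicate 3 (0.23), wild-type replicate 1 (0.42) or wild-type replicate 2 (0.04). The cause was not tested. The median pair correlation was 0.77 in forebrain by Spearman and 0.25 in hindbrain when centred on each genotype, and with each mouse left out it ranged from 0.93 to 0.97 in forebrain and from 0.64 to 0.72 in hindbrain. Of 414 refits of region differences, 401 kept sign and side of the threshold, and of 385 refits of genotype differences 363 moved by less than their error. Scaling by total counts alone moved the median of all genes for forebrain over hindbrain to -0.15 and the higher and lower calls from 5383 and 5147 to 4349 and 6819, from 1911 and 2028 to 1391 and 2926 for forebrain over midbrain, and from 5114 and 4880 to 4515 and 5729 for midbrain over hindbrain. Over all genes DESeq2 called 31, 62 and 59 between genotypes in forebrain, midbrain and hindbrain where edgeR called 0, 1 and 0, and 52 for the interaction where edgeR called 0. Without a filter edgeR called 0, 11 and 11 between genotypes, and with each mouse left out from 0 to 0, 0 to 4 and 0 to 5. The 3939 genes called between forebrain and midbrain became 1729 in wild-type libraries alone and from 2258 to 4001 with each mouse left out.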
